A study of Mus musculus with 2 samples.

Results

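The cytosolic ribosomal protein genes were described here in cells of mouse kidneys collected after rhabdomyolysis. The members were taken by name: symbols that begin with Rpl or Rps followed by a digit, together with Rpsa, Rplp0, Rplp1 and Rplp2, without rows that carry -ps and without the Rps6k kinases. This gave 86 of the 31058 rows of the table. They comprised 77 genes without paralogue forms, 8 paralogue forms whose names mostly end in l or l1, and Rps19bp1, which matches by name only, encodes a binding partner of Rps19 and was counted apart. A total of 10 Rps6k rows and 9 rows with -ps were left out.

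Total kidney cells came from female C57Bl/6 mice, 9 weeks of age, and their RNA was counted by a droplet single-cell method that reads the 3′ end of each transcript. There was 1 library of kidney cells after rhabdomyolysis with vehicle and 1 after rhabdomyolysis with CA3. This compound is a small-molecule YAP1 inhibitor, and the design text of the series asks for pathways in acute kidney injury and later chronic kidney disease. Both groups had the genotype Pax8.rtTA;TetO.Cre;R26.FUCCI2aR, so that Cre can be induced wherever the Pax8 promoter drives rtTA, as it does in kidney tubules, and can switch on a fluorescent cell cycle reporter. No uninjured kidney was analysed here, and the dose, the time after injury and the number of mice behind a library were not stated in the labels. With 1 library per treatment, a difference between the treatments cannot be told apart from a difference between the libraries, and no p-value was computed. The intervals given below are 95% intervals that cover counting error only.

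The vehicle library held 1967 barcodes and 19592239 unique molecular identifiers (UMIs, each marking 1 captured RNA molecule), and the CA3 library held 1724 barcodes and 17013222 UMIs. After filtering, 1767 and 1494 cells were kept, with median depths of 7338 and 7567 UMIs. The libraries had 1 barcode sequence in common. Cells were grouped without using the ribosomal protein genes, and each group was named by marker genes, hence the ending "-like". The 6 groups with at least 30 cells in each library were proximal tubule-like, thick ascending limb-like, distal convoluted tubule-like, endothelial-like, mononuclear phagocyte-like and T or NK cell-like. A cluster of 50 and 47 cells led by haemoglobin and proximal tubule genes was left unnamed. Haemoglobin genes made up 2.15% of its non-mitochondrial UMIs with vehicle and 0.0023% in the CA3 library. They also made up 0.961% of those of T or NK cell-like cells in the vehicle library, against 0.0025% in the CA3 library, while in mononuclear phagocyte-like cells they made up 0.0024% with vehicle and 1.14% with CA3. Their part in the shares below was not tested.

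A cytosolic ribosome has a small (40S) subunit, which reads the mRNA, and a large (60S) subunit, which joins amino acids. Each ribosomal protein is, for most members, encoded by a single active gene, and their mRNAs belong to the TOP class, which begins with a C followed by a run of C and T bases and whose translation is controlled by mTOR signalling through the binding protein LARP1. Their transcripts are among the most abundant of a cell, and lymphocytes are known for devoting a large part of their small mRNA pool to them. Paralogue forms are second genes for a related protein, such as Rps27l, a known target of p53, and Rpl22l1, whose level depends on Rpl22 in other tissues.

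The region around the annotated start is shown for the members that the comparisons below turn on, since the class is defined by how its transcripts begin. Each window holds 30 bases in the direction of transcription around the RefSeq start on GRCm38.p6, 15 on each side. The first 15 bases lie before the annotated first base of the transcript. Capitals mark the longest run of C and T bases that begins with C and has at least 5 bases. Such a run can lie anywhere in the window. Of the runs shown, only that of Rps27 covers the annotated first base, so a marked run is not by itself the motif of the class. The first pair is a ribosomal protein gene and its paralogue form with the widest difference between cell groups (chr3:90213634-90213663, minus strand, and chr9:66946071-66946100, plus strand).
Rps27: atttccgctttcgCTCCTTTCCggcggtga
Rps27l: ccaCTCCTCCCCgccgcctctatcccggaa
The second pair lies at chr4:152324421-152324450 and chr3:28805493-28805522, both on the plus strand. Over all cells of each group, the paralogue's share of this pair was alike in proximal tubule-like and T or NK cell-like cells. RefSeq gives a further start, whose window has no run, for Rpl22 (chr4:152325711-152325740, near the start of the GENCODE model used for its coding length) and for Rps27l (chr9:66946398-66946427), and only the first start of each is shown.
Rpl22: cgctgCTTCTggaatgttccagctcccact
Rpl22l1: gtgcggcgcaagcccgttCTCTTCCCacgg
Rpl12 (chr2:32961697-32961726, plus strand) and Rps15a (chr7:118116133-118116162, minus strand) were the 2 members with the highest ratio of T or NK cell-like to proximal tubule-like share by the smaller of both libraries' values.
Rpl12: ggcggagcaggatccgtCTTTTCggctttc
Rps15a: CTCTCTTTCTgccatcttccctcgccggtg
Rpl39 (chrX:37085208-37085237, minus strand) stood at 818 CPM in the vehicle and 988 CPM in the CA3 library in proximal tubule-like cells. This fell short of the 25% used below to call a member higher. Rpl6 (chr5:121204486-121204515, plus strand) was called lower in the CA3 library in these cells.
Rpl39: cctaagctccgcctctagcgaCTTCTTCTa
Rpl6: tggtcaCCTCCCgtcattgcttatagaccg
RefSeq starts were matched for 65 of the 85 members other than Rps19bp1. Only the transcribed strand was searched, and overlapping runs counted once. The run was present in 37 of 57 members without paralogue forms (64.9%) and in 6 of 8 paralogue forms (75%), against 10885 of the 27025 genes with a window (40.3%). Windows of Rpl27, Rpl37, Rpl37a and Rpl41, all called higher in the CA3 library below, held no such run. Those of Rpl24, Rpl36al and Rpl7l1 held none either. This says only that these letters are absent around the annotated start. A run that was present likewise says only that the letters lie within the window, since no place relative to the first base was required.

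In proximal tubule-like cells, which reabsorb most of the filtered load, ribosomal protein genes made up 7.77% of non-mitochondrial UMIs with vehicle and 7.47% with CA3. Levels below are UMIs of a gene per 1000000 non-mitochondrial UMIs (CPM), summed over the cells of a group. Reads from 3′ ends give 1 count per molecule whatever its length, so no division by length was made, but how well each transcript end is captured and mapped differs between genes. The order of levels is therefore a description. Rps29, a small 40S protein, was highest, at 2071 CPM in the vehicle and 1817 CPM in the CA3 library. It was followed by Rpl23 (1718 and 1687 CPM), Rpl13 (1601 and 1378 CPM), Rplp1 (1394 and 1568 CPM), Rpl28 (1455 and 1496 CPM), Rps2 (1546 and 1281 CPM) and Rpl41 (1232 and 1585 CPM), all among the 8 highest by the mean of both libraries. The 8 highest were not the same in each: Rps24, at 1421 and 1325 CPM, stood above Rpl41 with vehicle and above Rps2 with CA3. Among members without paralogue forms, the lowest were Rpl13a at 185 and 155 CPM, Rpl27 at 194 and 244 CPM, Rpl31 at 388 and 409 CPM, Rpl4 at 425 and 396 CPM and Rpl36a at 455 and 527 CPM. Proteins that a ribosome holds in equal number were thus represented by UMI counts more than 10 times apart.

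Cell groups differed widely in the share of UMIs given to ribosomal proteins, and T or NK cell-like cells were highest of the 6 main groups. Their share was 23.8% (23.7 to 24.0) in the vehicle library, over 51 cells, and 25.2% (25.1 to 25.3) in the CA3 library, over 96 cells. That was 3.07 times (3.04 to 3.09) and 3.38 times (3.36 to 3.40) the share in proximal tubule-like cells. Both clusters that made up the group were high, at 22.4% and 23.2% in the cluster led by Ccl5, Gzma and Nkg7 and at 25.2% and 28.0% in the cluster led by Il17a and Il7r. Mononuclear phagocyte-like cells gave 15.8% and 16.0%, or 2.04 and 2.14 times the proximal tubule-like share. The 10 leading genes of this group held Lyz2, Ctss, Tyrobp and C1qb, and also Igha, Jchain and Igkc of plasma cells and S100a9 of neutrophils, whose part in the share was not tested. Endothelial-like cells gave 8.54% and 9.09%, and thick ascending limb-like cells, which reabsorb salt without water, gave 7.59% and 8.45%. Distal convoluted tubule-like cells, the thiazide-sensitive segment, were lowest of the main groups in both libraries, at 5.68% and 6.80%. Among cells with at least 1% nuclear RNA (defined below), proximal tubule-like cells were lower in the CA3 library, at 5.24% against 6.11%. Endothelial-like cells with at least 1% gave 8.52% and 8.93%, and thick ascending limb-like cells 6.66% and 7.33%. Both lay above such proximal tubule-like cells, at 5.35% and 5.24%. Over all cells, the order of the thick ascending limb-like and proximal tubule-like groups was not the same in the 2 libraries. Cells varied within every group: in the proximal tubule-like group the middle 50% of cells spanned 5.73% to 11.2% in the vehicle and 5.44% to 10.8% in the CA3 library. In T or NK cell-like cells they spanned 20.2% to 26.9% and 19.5% to 27.6%.

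**Figure D1:**
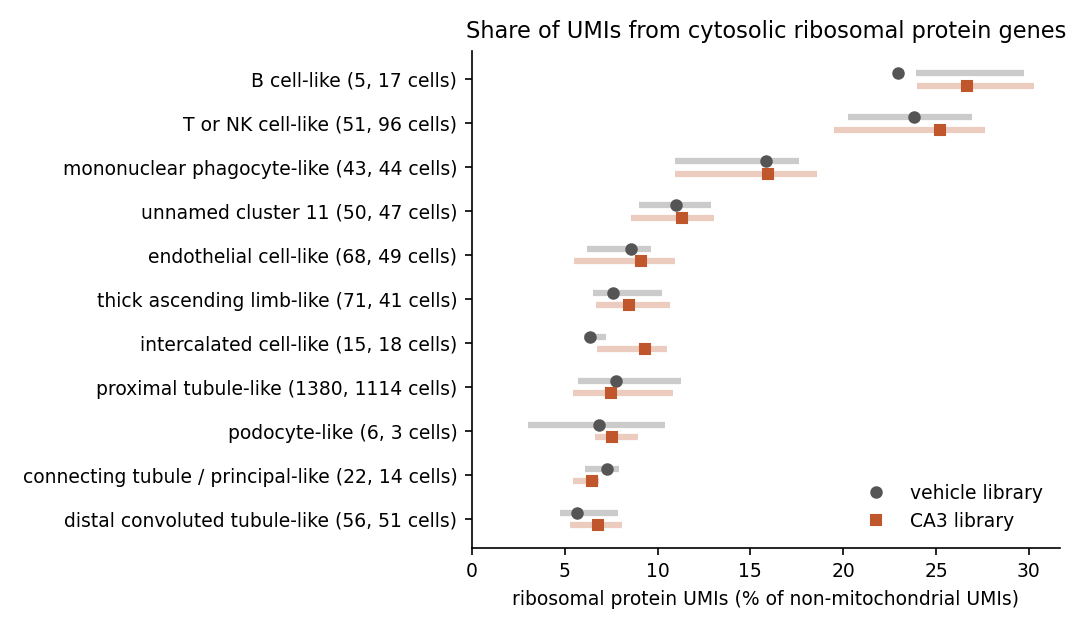
Ribosomal protein UMIs as a percent of non-mitochondrial UMIs (horizontal axis) in each cell group (vertical axis) of the vehicle and CA3 libraries; points are sums over all cells of the group and pale bars span the 25th to 75th percentile over cells. Among the 6 main groups, T or NK cell-like cells (23.8% and 25.2%) and mononuclear phagocyte-like cells (15.8% and 16.0%) lie above the 4 tubule and endothelial groups, which lie between 5.68% and 9.09%. The smaller groups and the unnamed cluster are drawn too, with B cell-like cells at 22.9% and 26.7%.

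The smaller groups, under 30 cells in at least 1 library, lay between 6.36% and 26.7%. B cell-like cells (5 and 17 cells) gave 22.9% and 26.7%, close to the T or NK cell-like share. Connecting tubule or principal-like cells (22 and 14 cells) gave 7.26% and 6.46%, intercalated-like cells (15 and 18 cells) 6.36% and 9.31%, and podocyte-like cells (6 and 3 cells) 6.84% and 7.56%. The unnamed cluster gave 10.97% and 11.3%.

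The spread among proximal tubule-like cells followed the amount of nuclear RNA in a barcode. The genes Malat1, Xist, Neat1 and Snhg11, whose RNAs are long noncoding and mostly kept in the nucleus, were summed as nuclear RNA. This list and the 1% limit below were chosen after the values were seen. In the vehicle library 858 of 1380 proximal tubule-like cells (62.2%) had under 1% nuclear RNA, and in the CA3 library 695 of 1114 (62.4%). Few cells lay near the limit: 30 and 8 cells held between 0.5% and 2%. Barcodes poor in nuclear RNA gave a ribosomal protein share of 10.7% and 10.4%, and those rich in it 5.35% and 5.24%. The number of ribosomal protein UMIs per cell was close between both kinds, at 575 in poor and 569 in rich vehicle barcodes and at 574 and 628 in the CA3 library. What differed was the total: 5394 non-mitochondrial UMIs per poor cell against 10634 per rich cell in the vehicle library, and 5525 against 11985 in the CA3 library. Leaving nuclear RNA out of the denominator raised the share in rich cells only to 6.39% and 6.24%. Mitochondrial UMIs were 23.0% of all UMIs in poor and 15.4% in rich vehicle cells, and 24.5% and 15.5% in the CA3 library. Whether a barcode poor in nuclear RNA held a whole cell was not tested.

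No measured member changed its proportion past the limit used here across this divide. As a share of ribosomal protein UMIs, 0 of the 82 members with at least 20 UMIs differed by 1.5 times or more in both libraries between poor and rich cells. By the same rule 0.0472% of all measured genes were higher and 71.3% lower in poor cells. Members divided by their own sum centre near 1 on this scale, while other genes shift with the share of members. The 71.3% is therefore no measure of how steady the members were. As CPM, 81 of 82 members were higher and 0 lower in poor cells, against 13.8% and 29.1% of all genes. Rps27l, for example, stood at 749 CPM in poor and 348 CPM in rich vehicle cells and at 716 and 355 CPM in the CA3 library. Rpl22l1 moved less, from 213 CPM in rich to 297 CPM in poor vehicle cells and from 221 to 325 CPM in the CA3 library. Its share of ribosomal protein UMIs in poor cells was thus only 0.70 and 0.74 times that in rich cells, a shift inside the limit.

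**Figure D2:**
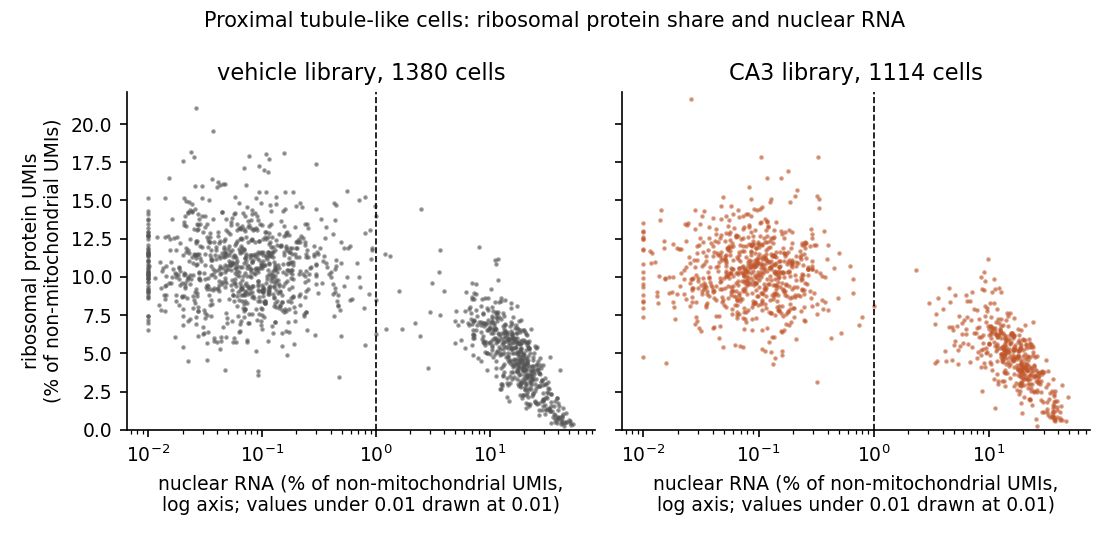
Each point is 1 proximal tubule-like cell, with nuclear RNA (percent of non-mitochondrial UMIs, log axis, values under 0.01 drawn at 0.01) against ribosomal protein UMIs (percent of non-mitochondrial UMIs), for 1380 vehicle and 1114 CA3 cells; the dashed line is the 1% limit. In both libraries the cells form 1 cloud left of the line and 1 to its right, where the ribosomal protein share is lower and falls as nuclear RNA rises.

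A divide in the share also ran through the other main tubule groups and touched fewer cells of the other main groups. Under 1% nuclear RNA were 36 of 71 and 18 of 41 thick ascending limb-like cells, with shares of 10.1% and 11.5% against 6.66% and 7.33% in the rich cells. Of distal convoluted tubule-like cells it was 21 of 56 and 18 of 51, with 8.40% and 9.60% against 5.08% and 6.11%. Ribosomal protein UMIs per cell differed more here than in proximal tubule-like cells. In thick ascending limb-like cells they were 526 in poor against 964 in rich vehicle cells, and 599 against 809 with CA3. In distal convoluted tubule-like cells they were 473 against 777 with vehicle and 435 against 610 with CA3. Only 2 of 51 and 2 of 96 T or NK cell-like cells and 1 of 68 and 3 of 49 endothelial-like cells were poor in nuclear RNA. Of mononuclear phagocyte-like cells it was 5 of 43 and 6 of 44, with shares of 16.2% and 25.3% against 15.8% and 14.5% in the rich cells. The unnamed cluster held 0.12% and 0.061% nuclear RNA. Against rich proximal tubule-like cells alone, the share of all T or NK cell-like cells was 4.45 and 4.82 times as high, and against poor ones 2.23 and 2.43 times.

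Because whole groups differed in total, members were compared between groups as a share of all ribosomal protein UMIs of the group. T or NK cell-like cells had 5 of 82 measured members higher and 11 lower than proximal tubule-like cells. The rule was at least 1.5 times in both libraries, which 6.14% of all measured genes passed upward and 79.1% downward. The number of members higher was thus close to the share of all genes. On this scale other genes shift with the members' total, here and in mononuclear phagocyte-like cells. Their shares are therefore a poor background for the members. Rpl12, part of the base of the stalk of the large subunit, was the highest relative to its fellows: 661 and 584 CPM in proximal tubule-like cells of the vehicle and CA3 libraries, and 4369 and 4543 CPM in T or NK cell-like cells. Its share of ribosomal protein UMIs was 2.16 times (2.03 to 2.29) and 2.30 times (2.20 to 2.41) as high there. Rps15a, a 40S protein, rose from 808 and 842 CPM to 4613 and 5473 CPM (1.86 and 1.92 times by share). Rps27, a 40S protein with a zinc finger, rose from 844 and 928 CPM to 4677 and 6367 CPM (1.81 and 2.03 times by share). Rps24 rose from 1421 and 1325 CPM to 7438 and 7532 CPM (1.71 and 1.68 times by share), which made it the most abundant member in that group. Rps27rt, a copy of Rps27 with low counts, was the fifth, at 1.62 times (1.12 to 2.28) and 1.55 times (1.19 to 2.01).

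The 11 members with a lower share were led by paralogue forms. Rps27l stood at 0.0795 times (0.0556 to 0.110) and 0.113 times (0.0930 to 0.135) its proximal tubule-like share, and Rpl7l1 at 0.207 times (0.106 to 0.364) and 0.252 times (0.175 to 0.351). Rpl7l1 is related to Rpl7 and takes part in making the large subunit. Rpl7a of the large subunit stood at 0.505 and 0.449 times. Rpl7a was lower only as a share: in CPM it went from 826 and 747 in proximal tubule-like to 1278 and 1134 in T or NK cell-like cells. The lower members also included Rpl28, Rps2, Rpl41, Rpl36al, Rpl10, Rpl31 and Rpl24, with shares between 0.465 and 0.642 times those of proximal tubule-like cells. By CPM, 78 of the 82 members were higher in T or NK cell-like cells and 1, Rps27l, was lower, against 20.7% and 36.9% of all genes. With proximal tubule-like cells rich in nuclear RNA as the only reference, 4 members were higher (Rpl12, Rps27, Rps15a and Rps24) and the same 11 lower.

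**Figure D3:**
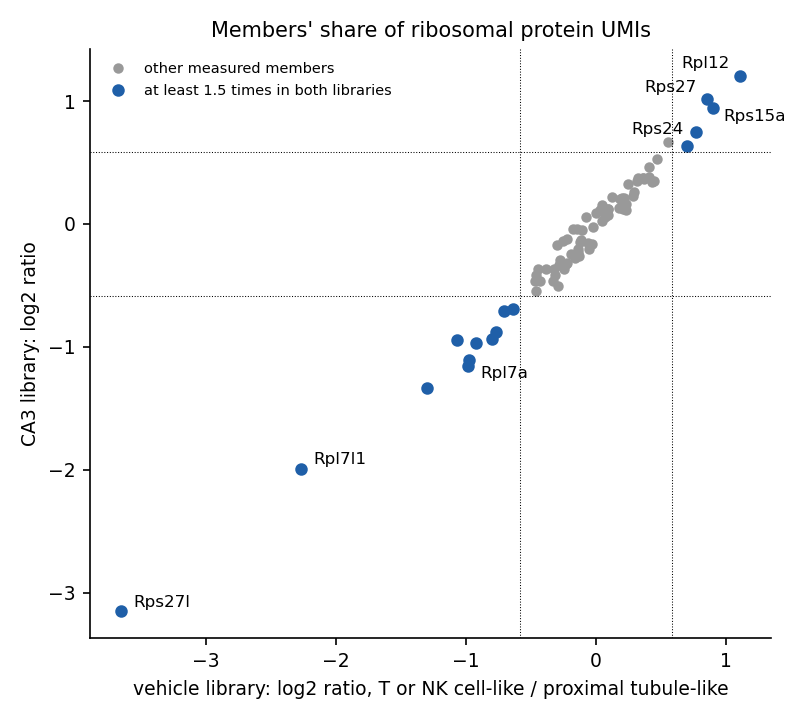
Log2 ratio of each member's share of ribosomal protein UMIs in T or NK cell-like over proximal tubule-like cells, in the vehicle library (horizontal) and the CA3 library (vertical), for 82 members; dotted lines mark 1.5 times and blue points pass it in both libraries. The points lie along 1 diagonal, with Rps27l farthest down and Rpl12 farthest up.

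Mononuclear phagocyte-like cells had 2 members higher and 5 lower by share, against 8.77% and 68.2% of all genes. Rpsa, the 40S protein also known as the laminin receptor, rose from 882 and 787 CPM to 2924 and 2561 CPM, which was 1.63 times (1.53 to 1.73) and 1.52 times (1.43 to 1.62) by share. Rps27l (0.311 and 0.231 times), Rpl7l1 (0.382 and 0.463 times), Rps2 (0.556 and 0.518 times) and Rpl7a (0.636 and 0.652 times) were among those lower by share. All 5 were among the 11 lower in T or NK cell-like cells. By CPM, 70 members were higher and 1 lower in this group, against 17.8% and 36.7% of all genes.

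The other 3 main groups kept nearly the proportions of proximal tubule-like cells. In endothelial-like cells Rps27l alone passed, at 0.469 and 0.527 times, with 0 members higher, against 21.1% of genes lower and 23.9% higher. In thick ascending limb-like cells Rps27l (0.648 and 0.596 times) and Rps19 (0.650 and 0.645 times) were lower and 0 members higher, against 19.9% and 15.6% of genes. Rps19, a 40S protein whose gene is the one most often mutated in Diamond-Blackfan anaemia, stood at 1268 and 1193 CPM in proximal tubule-like and 805 and 870 CPM in thick ascending limb-like cells. In distal convoluted tubule-like cells Rpl10, which sits near the catalytic centre, was lower, at 0.665 and 0.662 times, with 0 higher, against 15.6% lower and 23.0% higher.

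Of the 8 paralogue forms, 5 were measured in the main groups. Over the kept cells of the vehicle and CA3 libraries, Rps27l had 6875 and 5753 UMIs, Rpl22l1 4079 and 3800, Rpl36al 3130 and 2816, Rpl7l1 926 and 862, and Rps27rt 437 and 424. Rpl3l, the muscle form of Rpl3, had 21 and 15 UMIs. Rpl39l, known from testis, had 1 and 4 UMIs, all in T or NK cell-like cells, and Rpl10l, also a testis form, had 0 in both libraries, a count that allows up to 3 UMIs. Rps19bp1, outside the family, had 638 and 492.

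Rps27l set the groups apart more than any other paralogue that was measured. Of the UMIs of Rps27l and Rps27 together, Rps27l supplied 38.6% (37.8 to 39.4) in vehicle and 35.5% (34.7 to 36.4) in CA3 proximal tubule-like cells. Distal convoluted tubule-like cells were alike, at 38.0% (34.2 to 41.9) and 38.6% (34.5 to 42.7). The share was 28.4% and 24.0% in thick ascending limb-like, 18.4% and 16.5% in endothelial-like and 13.8% and 7.91% in mononuclear phagocyte-like cells. It was lowest in T or NK cell-like cells, at 2.69% (1.89 to 3.703) and 2.96% (2.46 to 3.54). Both genes took part: Rps27 was highest where Rps27l was lowest. The end of the Rps27 transcript was found whole in Rps27rt, while that of Rps27l was found to 0% in other rows. The 2 counts may therefore not be equally complete, which the counting intervals do not cover. Its effect on the pair share was not tested. Rps27l itself was at 530 and 511 CPM in proximal tubule-like cells and at 129 and 195 CPM, from 36 and 118 UMIs, in T or NK cell-like cells. After thinning to 2000 UMIs per cell, with 0 cells left out, 57.6% and 56.5% of proximal tubule-like cells had an Rps27l UMI (unthinned 89.4% and 90.3%). Of T or NK cell-like cells 19.6% (9.82 to 33.1) and 28.1% (19.4 to 38.2) had one, or 39.2% and 58.3% unthinned.

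RNA of proximal tubule cells was present in the other groups, and the Rps27l count there has to be read beside it. Slc34a1, the proximal tubule phosphate carrier, which lymphocytes lack, had a UMI in 21.6% and 18.8% of thinned T or NK cell-like cells, against 97.3% and 97.8% of proximal tubule-like cells. Slc34a1 is far more abundant than Rps27l in proximal tubule-like cells (4800 and 4997 CPM), so levels relative to the proximal tubule were compared rather than shares of cells. The median depth before thinning was 5235 and 6083 UMIs in T or NK cell-like and 7220 and 7980 in proximal tubule-like cells. The Slc34a1 level in T or NK cell-like cells was 12.9% and 6.86% of that in proximal tubule-like cells, and that of Lrp2, the endocytic receptor megalin, 11.9% and 8.28%. Rps27l stood at 24.4% and 38.0% of its proximal tubule-like level, above both of these genes in each library. How much of the Rps27l count came from proximal tubule RNA was not tested.

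Rpl22l1 followed another pattern. It supplied 27.9% (27.0 to 28.8) and 29.5% (28.5 to 30.5) of the UMIs of the pair with Rpl22 in proximal tubule-like cells and 30.4% (27.0 to 34.0) and 31.2% (28.9 to 33.6) in T or NK cell-like cells, intervals that overlap between the groups in both libraries. Both genes of the pair were higher in CPM in T or NK cell-like cells, Rpl22l1 at 743 and 781 against 251 and 266 CPM and Rpl22 at 1702 and 1721 against 650 and 635 CPM. Proximal tubule-like cells rich in nuclear RNA held less Rpl22 (428 and 417 CPM) than poor ones (915 and 921 CPM). Rpl22l1 differed less, at 213 and 221 against 297 and 325 CPM. In rich cells alone its share of the pair was above these T or NK cell-like shares, as given among the alternatives below. Endothelial-like cells had the highest Rpl22l1 share of the 6 main groups in the CA3 library, at 38.2%, and 38.8% in the vehicle library, where thick ascending limb-like cells reached 40.5% (36.4 to 44.7) but only 26.5% (21.7 to 31.8) in the CA3 library. Rpl36al supplied between 21.7% and 40.6% of the pair with Rpl36a over the 6 groups and both libraries, and Rpl7l1 between 1.93% and 8.47% of the pair with Rpl7.

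**Figure D4:**
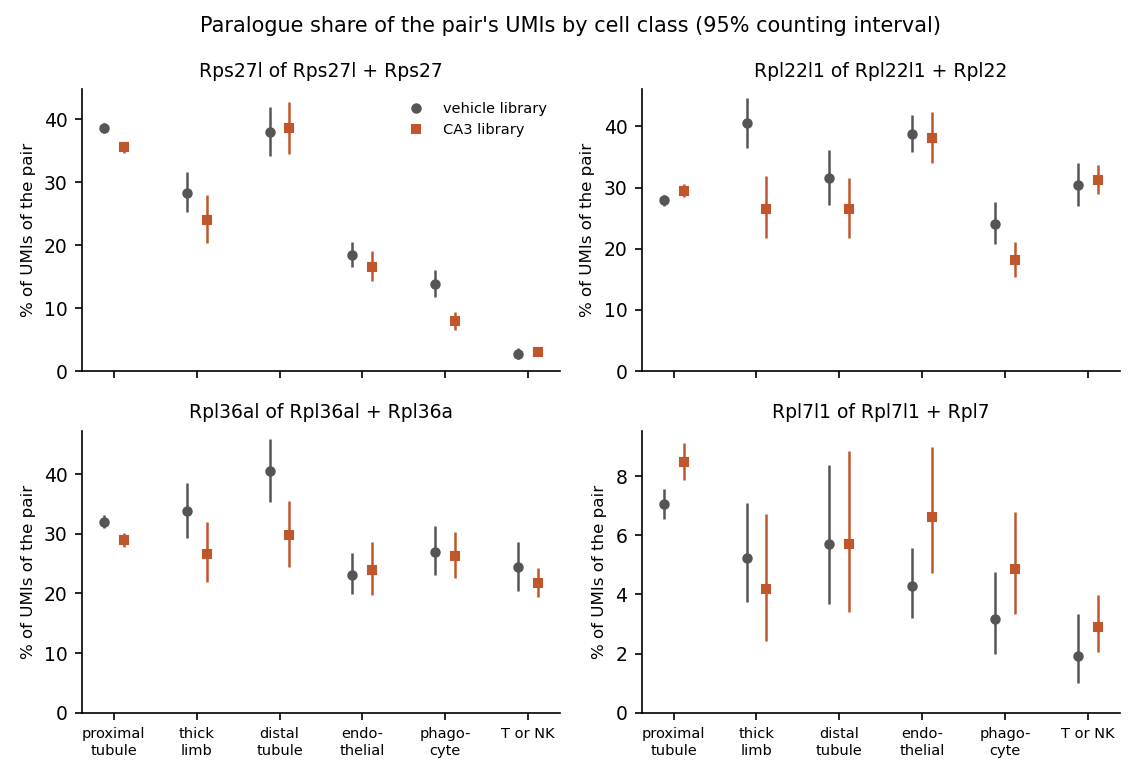
Share of a pair's UMIs that came from the paralogue form (vertical axis, percent) in the 6 main cell groups (horizontal axis) of the vehicle (grey) and CA3 (orange) libraries, with 95% counting intervals, for 4 pairs. Rps27l falls from 38.6% and 35.5% in proximal tubule-like to 2.69% and 2.96% in T or NK cell-like cells, while Rpl22l1 lies near 30% in both.

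CA3 was compared with vehicle in CPM within each group. In proximal tubule-like cells the summed share of members was slightly lower in the CA3 library, 0.961 times (0.958 to 0.965), while in the other main groups it was 1.11 times (thick ascending limb-like), 1.199 times (distal convoluted tubule-like), 1.06 times (endothelial-like), 1.01 times (0.996 to 1.02, mononuclear phagocyte-like) and 1.06 times (T or NK cell-like). In proximal tubule-like cells 5 members were higher by at least 25% and 2 lower, at 0.8 times or less, of 82 measured, against 10.6% and 8.4% of all measured genes. Among 624 other genes about as abundant (at or above the 5th percentile of the members' summed UMIs), 3.37% were higher and 0.962% lower. The members' counts were thus below the shares of all genes, many of them sparse, and above those of abundant genes. The median member stood at -0.10 on the log2 scale, against 0.01 for all genes. Rpl36, a 60S protein, was highest in ratio: 7737 UMIs (760 CPM) in the vehicle and 8804 UMIs (993 CPM) in the CA3 library, or 1.31 times (1.27 to 1.35). Rpl41, the smallest ribosomal protein, rose from 1232 to 1585 CPM (1.29 times), Rpl27 from 194 to 244 CPM (1.26 times), Rpl37 from 920 to 1153 CPM (1.253 times) and Rpl37a from 1174 to 1469 CPM (1.252 times). Rpl39, a short protein of the exit tunnel wall, stood just short of the limit, at 818 and 988 CPM (1.21 times). Lower in the CA3 library were Rpl6, at 1288 and 1010 CPM (0.784 times, 0.763 to 0.805), and Rpl24, at 1182 and 932 CPM (0.789 times, 0.767 to 0.811). Rps2, Rps4x, Rpl23a and Rpl15 stood between 0.828 and 0.848 times, short of the limit.

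The members named for the large-subunit stalk and the 5S particle were split. Rplp0, the anchor of the stalk, was level, at 1329 and 1299 CPM (0.977 times), while the small acidic proteins that hang from it were higher, Rplp1 at 1394 and 1568 CPM (1.12 times) and Rplp2 at 667 and 802 CPM (1.201 times). Rpl5 and Rpl11, which bind the 5S rRNA and, when free, the p53 ligase Mdm2, stood at 982 and 852 CPM (0.867 times) and at 1000 and 926 CPM (0.926 times). Mdm2 itself was at 43.7 and 43.2 CPM. No member of either set passed these limits in proximal tubule-like cells.

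In the other 5 groups more members passed upward than downward, though not under every alternative in 3 of them. Thick ascending limb-like cells had 19 higher and 3 lower of 82, against 21.9% and 28.3% of all genes, and distal convoluted tubule-like cells 28 higher and 0 lower of 81, against 23.8% and 25.7%. Endothelial-like cells had 14 and 3 (22.9% and 27.5%), mononuclear phagocyte-like cells 8 and 4 (29.6% and 24.4%), and T or NK cell-like cells 13 and 0 (25.6% and 24.8%). Among other genes as abundant as the members, 11.2% were higher and 18.4% lower in thick ascending limb-like, 12.6% and 13.6% in distal convoluted tubule-like, 15.5% and 18.3% in endothelial-like, 27.1% and 11.5% in mononuclear phagocyte-like and 13.9% and 7.41% in T or NK cell-like cells. Members thus passed upward more often than all genes in distal convoluted tubule-like cells and about as often in thick ascending limb-like cells. In endothelial-like, mononuclear phagocyte-like and T or NK cell-like cells they did so less often. Beside genes as abundant, they passed upward more often in both tubule groups. The 2 rates were near each other in endothelial-like and T or NK cell-like cells, and members were lower in mononuclear phagocyte-like cells. With 41 to 96 cells per library, these groups rest on few cells. Proximal tubule RNA in them also differed between the libraries. Slc34a1 stood at 14.0% (vehicle) and 2.59% (CA3) of its proximal tubule-like level in thick ascending limb-like cells. In endothelial-like cells it stood at 10.4% and 24.4%, in mononuclear phagocyte-like cells at 11.3% and 6.79%, and in distal convoluted tubule-like cells at 14.8% and 13.3%. Its part in the ratios was not tested. Endothelial-like counts became 6 higher and 14 lower under a stricter cell filter, 5 and 18 when members were allowed to shape the clusters and 8 and 8 after thinning. Mononuclear phagocyte-like counts became 3 and 3 with members shaping the clusters and 2 and 13 in cells with at least 1% nuclear RNA, and thick ascending limb-like counts 6 and 6 as a share of ribosomal protein UMIs. Rpl36 was higher in every main group: 1.56 times in thick ascending limb-like, 1.48 in distal convoluted tubule-like, 1.46 in endothelial-like, 1.39 in mononuclear phagocyte-like and 1.54 in T or NK cell-like cells (1992 and 3078 CPM). Rpl37a was likewise 1.34 to 1.62 times as high in the 5 groups other than proximal tubule-like. Rpl36a reached 1.63 times in thick ascending limb-like cells, from 406 to 664 CPM, and Rps27 1.40 times in mononuclear phagocyte-like cells, from 2100 to 2945 CPM. Rpl5 was lower in endothelial-like (0.779 times, 0.694 to 0.873) and thick ascending limb-like cells (0.777 times, 0.662 to 0.910). Rpl22l1 was lower in thick ascending limb-like cells, at 331 and 236 CPM (0.711 times, 0.546 to 0.918), where Rpl13a was the third member past the limit (0.745 times, 0.505 to 1.08). The others that were lower were Rpl13a (0.758 times) and Rpl23a (0.787 times) in endothelial-like cells, and Rps27l (0.752 times), Rpl22l1 (0.787 times), Rpl24 (0.791 times) and Rpl29 (0.797 times) in mononuclear phagocyte-like cells.

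The ratio of CA3 to vehicle ran with the length of the coding sequence, a feature that the choice of members did not use. The limit of 450 coding bases was set after the values were seen. In proximal tubule-like cells, 25 of the 40 members with at most 450 coding bases had a ratio above 1 (median 1.04), and 1 of the 42 longer members did (median 0.884). All 5 members called higher were in the first set and both called lower in the second. Rpl41 has 75 coding bases, Rpl39 153, Rpl37a 276, Rpl37 291, Rpl36 315 and Rpl27 408, while Rpl24 has 471 and Rpl6 888. Across the 82 members the Spearman coefficient between coding length and the ratio was -0.74. These points come from the same 2 libraries and are not independent. Across 9206 other genes of the same cells the coefficient was 0.13, of the opposite sign. Of these genes, 4112 had over 1500 coding bases, a range with 0 members, and their median log2 ratio was 0.032. Other genes of at most 300 coding bases had a median of 0.018, and those over 300 and up to 450 bases -0.043. The members' medians in the same ranges were 0.14 and 0.028. Against transcript length the members' coefficient was -0.39, against GC content -0.13 and against the part of the transcript end shared with other genes -0.0062.

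The same direction was seen in all 6 main groups, which share the 2 libraries. The median ratio of short against long members was 1.19 against 1.02 in thick ascending limb-like, 1.29 against 1.10 in distal convoluted tubule-like, 1.14 against 0.969 in endothelial-like, 1.06 against 0.925 in mononuclear phagocyte-like and 1.12 against 0.958 in T or NK cell-like cells. The coefficient lay between -0.57 and -0.65 in these 5 groups. Among other measured genes the coefficient was -0.11 in thick ascending limb-like, -0.28 in distal convoluted tubule-like, -0.17 in endothelial-like, 0.18 in mononuclear phagocyte-like and 0.075 in T or NK cell-like cells. Other genes of at most 300 coding bases had median log2 ratios from 0.018 (proximal tubule-like) to 0.19 (distal convoluted tubule-like) over the 6 groups. Those of such members ran from 0.14 to 0.53. Longer other genes were not always lower: over 1500 bases they stood at 0.16 in mononuclear phagocyte-like cells, against 0.064 at 300 or less. The direction among members was also present within each of the 9 proximal tubule-like clusters, where the short members always had the higher median. Within cells under 1% nuclear RNA, 5 members were higher and 2 lower (13.1% and 11.6% of all genes) with a coefficient of -0.74, and within cells at 1% or more, 5 and 0 (12% and 10.3%) with a coefficient of -0.70. Rpl36 was 1.34 times (1.28 to 1.39) and 1.31 times (1.2498 to 1.38) as high with CA3 in these 2 kinds of cell, and Rpl6 0.781 and 0.816 times. In a design with 1 library each, a property of the library that acts on short transcripts and an effect of the treatment cannot be told apart.

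**Figure D5:**
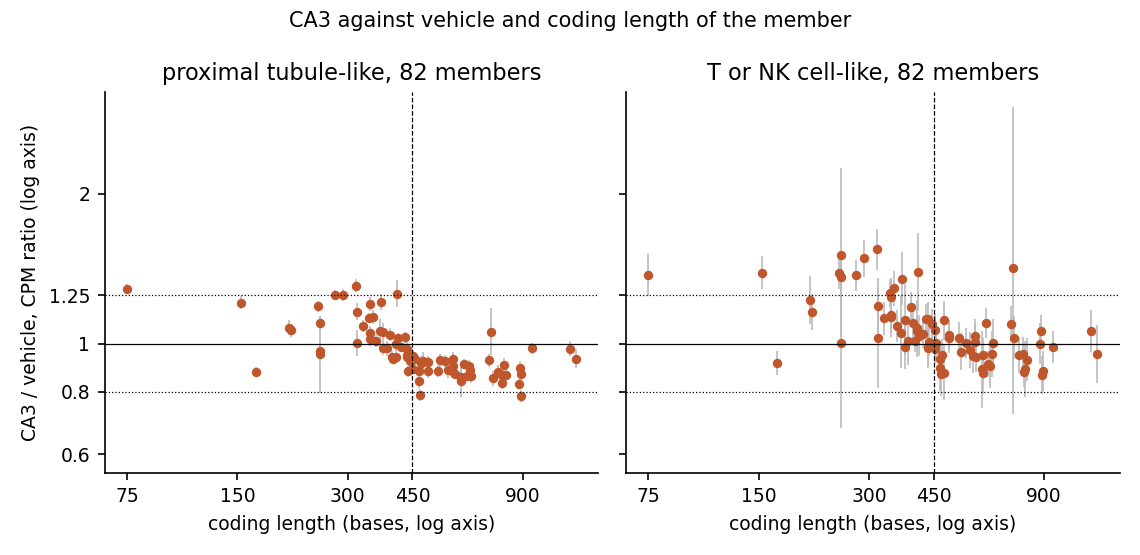
Ratio of CPM in the CA3 over the vehicle library (vertical, log axis, with 95% counting intervals) against the coding length in bases (horizontal, log axis) for 82 members in proximal tubule-like (left) and T or NK cell-like cells (right); the dashed line marks 450 bases and dotted lines the limits of a call. Members at or under 450 bases have median ratios of 1.04 and 1.12, and longer ones 0.884 and 0.958.

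Other genes of translation were taken from lists of the pathway. Fau and Rack1 encode proteins of the cytosolic ribosome under other names and followed the members between groups. Fau, whose product is a fusion that holds a 40S protein, was at 1270 and 1298 CPM in proximal tubule-like and 4225 and 4791 CPM in T or NK cell-like cells. Rack1, a signalling scaffold on the small subunit, was at 736 and 650 CPM in the former and 2297 and 2193 CPM in the latter. Neither passed the limits for CA3 in proximal tubule-like cells, where Rack1 stood at 0.882 times and Fau at 1.02 times.

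Of the 17 translation factors and other genes with TOP mRNAs, 12 were higher and 0 lower in T or NK cell-like than in proximal tubule-like cells, against 20.7% and 36.9% of all genes, and their median of 1.04 and 1.08 on the log2 scale was below that of the members, 1.56 and 1.71. For CA3 in proximal tubule-like cells 0 of 17 passed in either direction, against 10.6% and 8.4% of all genes. Eef1b2, an elongation factor subunit, stood at 532 and 454 CPM, Nap1l1, a histone chaperone, at 173 and 143 CPM, and Eif2s3x, a subunit of initiation factor eIF2, at 66.6 and 80.8 CPM.

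Mitochondrial ribosomal proteins, which build the separate ribosome of mitochondria, had no member called higher in either leukocyte group. Of 77 measured, 34 were lower and 0 higher in T or NK cell-like than in proximal tubule-like cells, against 36.9% and 20.7% of all genes. In mononuclear phagocyte-like cells 48 were lower and 0 higher, against 36.7% and 17.8%. For CA3 in proximal tubule-like cells 1 of 78 was higher and 0 lower, against 10.6% and 8.4% of all genes. The one past the limit was Mrpl53, from 9 and 17 UMIs, with an interval that includes 1 (0.915 to 5.52). The largest ratios among those with at least 100 UMIs were those of Mrps22, at 44.2 and 35.5 CPM (0.804 times, 0.694 to 0.931, whose value lies inside the limit of 0.8), Mrpl52, at 147 and 179 CPM (1.22 times), and Mrpl48, at 64.5 and 53.5 CPM (0.829 times).

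Genes of ribosome assembly and rRNA synthesis were divided between groups, with 14 of 38 higher and 2 lower in T or NK cell-like cells, the latter Nop16 and Rpf2 at 4 and 8 and at 5 and 9 UMIs, against 20.7% and 36.9% of all genes. In proximal tubule-like cells 1 was higher and 1 lower with CA3, against 10.6% and 8.4%. These were Bop1, a factor of 60S assembly, at 86 and 108 UMIs (1.44 times, 1.08 to 1.94), and Gar1, a protein of the H/ACA particles that modify rRNA, at 174 and 116 UMIs (0.766 times, 0.6001 to 0.974). Taf1d, a factor of RNA polymerase I, was at 131 and 161 CPM (1.23 times). Of the regulators of ribosomal protein mRNA, 0 of 15 measured passed in proximal tubule-like cells. Myc stood at 21.3 and 18.7 CPM, Eif4ebp2, a repressor of cap-dependent initiation under mTOR, at 93.1 and 104 CPM, and Tsc2, an upstream inhibitor of mTOR, at 24.3 and 27.0 CPM. Among 12 genes of ribosome surveillance and stress, Zfp598, which marks collided ribosomes, was higher, with 164 and 219 UMIs (1.53 times, 1.247 to 1.89). Pelo, which rescues stalled ribosomes, was past the limit downward with 22 and 15 UMIs (0.783 times, 0.378 to 1.58). Gcn1l1 and Eif2ak4, which sense stalled ribosomes and uncharged tRNA, stood at 42.6 and 51.0 CPM and at 5.403 and 6.43 CPM.

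Several members share their transcript end with other genes, and their counts are uncertain, since reads that fit more than 1 gene may have been dropped or divided. Words of 31 bases from the last 300 bases were compared over GENCODE vM21 transcripts. For 16 members more than 50% of the end was found in other rows of the table, and for 52 in any annotated gene, processed pseudogenes included. For 20 it was under 5%, among them Rpl12, Rps15a, Rps24, Rpl6, Rpl37 and Rpl5. Each value describes the end of 1 transcript model per member, and some of these models were long beside their coding bases. Rps15a had 5130 bases with 390 coding, Rpl5 2045 with 891, Rps24 1613 with 399 and Rpl12 1242 with 495. Whether the reads came from these ends or from those of shorter forms was not tested. The end of Rps27 occurred whole in Rps27rt, that of Rpl41 to 74.1% in Gm10076, that of Rpl27 to 84.4% in Rpl27-ps3 and that of Rplp1 to 76.3% in Gm10073. The ends of Rpl36a (98.9%), Rpl35 (96.7%), Rpl7a (72.6%), Rpl36al (65.6%), Rpl10, Rpl9, Rps12, Rps18, Rps7, Rpl21 and Rpl29 were also shared with other rows. Gm10076 had 2206 and 4030 UMIs in proximal tubule-like cells, 2.10 times (1.99 to 2.21) the CPM in the CA3 library, beside 12541 and 14050 of Rpl41.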

How the data were processed

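The authors deposited, for every gene and cell, UMI counts without normalization, with Cell Ranger 3.0.1 and mm10 named in the submitters' processing notes. Read filters, cell calling and the handling of reads that fit several genes are not given in these sources. The number of deposited per-sample columns left unused was 0.

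Barcodes with under 500 genes or over 50% mitochondrial UMIs were removed. Both libraries were clustered together with scanpy 1.11.5, on 2000 variable genes without the members and the -ps rows, 30 principal components, 15 neighbours and Leiden resolution 1, and clusters were named from marker lists. A name needed its markers in both libraries, a condition added after the clusters were seen. No doublet caller was run, so doublets may remain. UMIs were summed per group and library. Shares have exact Clopper-Pearson intervals and ratios the exact conditional binomial interval of 2 Poisson counts. Only the interval of ratios was tested on simulated data. A member was measured with at least 20 UMIs over the 2 sums compared. It was called higher or lower by 25% (lower, at 0.8 times or less) between libraries, and past 1.5 times in both libraries between groups.

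The members, the gene lists and the naming rules were chosen with earlier results of these data known. Named were the paralogue forms with their parents, the 8 highest and 5 lowest members in proximal tubule-like cells, up to 6 members per direction for CA3 there and 3 elsewhere by the interval bound nearest 1, up to 4 per direction between groups by the smaller ratio, stalk and 5S members, those with shared ends, 2 further ribosomal components, and 3 genes per list by absolute ratio among those with at least 100 UMIs; further members were named after their values were seen. Some genes that the rule takes are not reported here. Gene models and coding lengths came from GENCODE vM21 on mm10, and start windows from RefSeq on GRCm38.p6. Alternatives covered the cell filter, the clustering, the denominator, the fold, the UMI minimum, thinning to 2000 UMIs and the 3 cells with most UMIs of a gene.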

Additional observations from a re-analysis of the deposited data

Results flagged for a closer look

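The ratio of CA3 to vehicle for Rps27l lay on opposite sides of 1 in different groups. It was 0.752 times (0.582 to 0.969) in mononuclear phagocyte-like cells, from 140 and 114 UMIs, against 1.44 times (1.196 to 1.74) in distal convoluted tubule-like cells, from 238 and 216 UMIs, and 1.51 times (1.03 to 2.25) in T or NK cell-like cells, from 36 and 118 UMIs. The summed share of members was higher in the CA3 library in proximal tubule-like clusters 2 (1.12 times) and 6 (1.02 times) and lower in the other 7, for example cluster 4 (0.929 times). With 1 library per treatment these differences between groups were not tested.

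The 9 rows with -ps, which were left out of the members, held 603 UMIs in kept vehicle cells and 450 in kept CA3 cells. The origin of these UMIs was not tested.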

How the results depend on the processing

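Of 338 alternative values, 226 stayed within the limits set for each. Of values for named members, 436 of 438 for CA3 and 117 of 119 between groups kept their sign. The cause of each change below was not tested. Values are given as vehicle and CA3, or higher and lower, in that order.

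The proximal tubule-like share was 7.62% and 7.33% without a cell filter, 7.71% and 7.29% under a strict cell filter (1000 genes or more, 25% mitochondrial UMIs or less), 7.68% and 7.37% with members among the variable genes, 7.91% and 7.61% at resolution 0.5, and 7.26% in the vehicle library clustered on its own. Over all UMIs it was 6.29% and 6.00%, without the 50 highest other genes 10.4% and 10.1%, as a median over cells 8.86% and 8.81%, without nuclear RNA 8.53% and 8.22%, and in cells with at least 1% nuclear RNA 5.35% and 5.24%. The T or NK cell-like share was 25.4% (CA3, strict filter), 22.5% and 26.7% (own clustering), 22.2% and 23.4% (all UMIs), 28.7% and 30.3% (without the 50 genes), 22.7% and 23.3% (median), 24.7% and 26.1% (without nuclear RNA) and 24.1% (vehicle, at least 1% nuclear RNA).

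Members lower than in proximal tubule-like cells became 5 in endothelial-like cells under the strict filter. With members among the variable genes they became 1, 0 and 3 in thick ascending limb-like, distal convoluted tubule-like and endothelial-like cells. In cells with at least 1% nuclear RNA, 1 was lower in thick ascending limb-like and 1 higher in mononuclear phagocyte-like cells. By CPM, 0 were lower in thick ascending limb-like and 6 in distal convoluted tubule-like cells, 1 was higher in endothelial-like cells, and mononuclear phagocyte-like (70 and 1) and T or NK cell-like counts (78 and 1) turned. On that scale Rps2 in mononuclear phagocyte-like (0.15) and Rpl7a in T or NK cell-like cells (0.60) changed sign on the log2 scale. At 2 times, 0 were lower in thick ascending limb-like, 0 in distal convoluted tubule-like and 0 in endothelial-like cells, 0 and 2 passed in mononuclear phagocyte-like and 1 and 3 in T or NK cell-like cells.

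For CA3 in proximal tubule-like cells, 2 were higher under the strict filter, 9 and 0 passed with own clustering (medians of short and long members 1.12 and 0.939), 0 were lower in cells with at least 1% nuclear RNA, 0 and 0 passed at 1.5 times, 0 were lower by share of ribosomal protein UMIs (medians 1.08 and 0.920) and 1 after thinning. Thick ascending limb-like cells had 1 lower with members among the variable genes, 3 and 0 at 1.5 times, 6 and 6 by share, 8 lower after thinning and 5 without the 3 top cells. Distal convoluted tubule-like cells had 5 higher at 1.5 times, 6 and 2 by share and 3 lower after thinning. Endothelial-like cells had 6 and 14 under the strict filter, 5 and 18 with members among the variable genes, 2 and 0 at 1.5 times, 7 higher by share, 8 and 8 after thinning and 7 and 5 without the top cells. Mononuclear phagocyte-like cells had 3 higher with members among the variable genes, 2 and 13 at 1% nuclear RNA or more, 0 and 0 at 1.5 times and 0 lower without the top cells. T or NK cell-like cells had 22 higher with own clustering (medians 1.253 and 1.08), 2 at 1.5 times and 1 lower after thinning.

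Rps27l supplied 37.6% (strict), 37.5% (own clustering) and 37.0% (at least 1% nuclear RNA) of its pair in vehicle proximal tubule-like cells, and 4.38% and 2.28% in T or NK cell-like cells clustered on their own. Rpl22l1 supplied 30.6% in CA3 proximal tubule-like cells under the strict filter, and 33.3% and 34.6% with at least 1% nuclear RNA. Unthinned, cells with a UMI were 89.4% and 90.3% for Rps27l and 70.7% and 76.3% for Rpl22l1 in proximal tubule-like, and 39.2% and 58.3% and 92.2% and 93.8% in T or NK cell-like cells.

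Groups under 30 cells in a library under an alternative gave no value: the thick ascending limb-like and distal convoluted tubule-like groups under the strict filter, the distal convoluted tubule-like and mononuclear phagocyte-like groups at resolution 0.5, and all but proximal tubule-like and T or NK cell-like cells with own clustering. The alternative with at least 1% nuclear RNA used a minimum of 20 cells, and it, the denominator without nuclear RNA, cells under 1% nuclear RNA and leaving out proximal tubule-like cluster 2 were chosen after seeing the data. No paired analysis was possible because there was 1 library per treatment and no replicate to leave out.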
